A study of Saccharomyces cerevisiae with 8 samples.

Results

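The 10 histone genes of Saccharomyces cerevisiae were followed through a 6 h fermentation assay on 8 two-colour Agilent arrays. They were taken by systematic name, with no threshold on a value, and are 10 of the 6256 genes with a probe on the array. Their names are HTA1 (YDR225W) and HTA2 (YBL003C) for histone H2A, HTB1 (YDR224C) and HTB2 (YBL002W) for histone H2B, HHT1 (YBR010W) and HHT2 (YNL031C) for histone H3, and HHF1 (YBR009C) and HHF2 (YNL030W) for histone H4. The last members are HTZ1 (YOL012C), which encodes the H2A variant H2A.Z, and HHO1 (YPL127C), which encodes the linker histone H1.

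Histones wrap nuclear DNA into nucleosomes, and a cell that copies its DNA must make a matching supply of core histones. The 8 core genes are therefore transcribed mainly around S phase, under the cell-cycle factors SBF and MBF and the activators Spt10 and Spt21. Outside S phase the HIR complex holds down 3 of their 4 gene pairs, and the pair of HTA2 and HTB2 is the known exception. They lie as 4 divergent gene pairs, each with 1 shared promoter region: HTA1 with HTB1 on chromosome IV, HTA2 with HTB2 and HHT1 with HHF1 on chromosome II, and HHT2 with HHF2 on chromosome XIV. Each pair was checked against the reference gene table, where the partners are neighbours on opposite strands. HTZ1 is not tied to replication in this way, and its product is exchanged into nucleosomes near gene starts by the SWR1 complex.

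The T0h group held 1 sample each of PE-2, JP1 and CAT-1 at the start of the assay, and the T6h group held 5 samples after 6 h, with JP1 and CAT-1 measured on 2 arrays each and BY4741 on 1. PE-2 and CAT-1 are heterothallic and JP1 a homothallic diploid isolated from Brazilian mills, and each strain stands for 1 isolate. BY4741, from the laboratory, is haploid, of mating type a, and has no working HIS3, LEU2, MET17 and URA3. All cells came from successive batches in rich medium with glucose. Each sample carried Cy5 (red) and shared its array with BY4741 T0h RNA in Cy3 (green), so every log2 ratio below is relative to that reference. PE-2 was not measured at T6h and BY4741, as a sample, not at T0h. The submitters call them biological replicates and do not say how the cultures were kept apart, and p-values here cover only how much these samples vary, which may be technical.

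Some properties of the arrays touch the results. The green reference was well above background for 89.9% to 91.3% of gene probes on the 6 arrays of slide 1. Slide 2 carried replicates 4 (JP1) and 5 (CAT-1) of T6h, with 20.8% and 11.2%. The red channel was well above background for 81.9% to 98.3% of probes. All 80 red histone signals were well above background and none was saturated, but the green signals of HTB2 and HHO1 were not well above background on either array of slide 2. The 2 spots of a histone probe differed by at most 0.34 (log2) on slide 1 and by up to 1.22 on slide 2. In the deposited table of processed values, the columns named for JP1 and CAT-1 at T0h followed the T6h arrays of replicate 1 (JP1) and replicate 2 (CAT-1), with r = 0.9998 for each. In all, 5 of its 8 columns did not match their own array: that of CAT-1 T6h replicate 2 followed the mean of the T0h arrays (r = 0.983), and that of PE-2 matched none (0.365 at best). The column of JP1 T6h replicate 1 was closer to the BY4741 T6h array (0.914) than to its own (0.895). Whether the files or the columns are misnamed is not given, so the T0h arrays of JP1 and CAT-1 are in doubt as well. The time differences of the called histone, regulator and chaperone genes are therefore also given without T6h replicates 1 and 2. Those of HTB2 and HTZ1 over the 8 arrays are also given without JP1 and CAT-1 at T0h. For the called regulators and chaperones that second setting is not given. Values here follow the scanner files. Correlations of log2 ratios across genes were 0.67 to 0.79 among the T0h arrays, 0.49 to 0.79 among the T6h arrays and 0.083 to 0.30 between the groups. By the scanner files, JP1 T6h replicate 1 correlated at 0.79 with JP1 T6h replicate 4 and at 0.30 with JP1 at T0h. CAT-1 T6h replicate 2 correlated at 0.78 with CAT-1 T6h replicate 5 and at 0.15 with CAT-1 at T0h. Which names are right was not tested. The label of the BY4741 array could be checked at T6h: HIS3, LEU2, MET17 and URA3 were all not well above background in its red channel. This check cannot tell JP1 from CAT-1, or T0h from T6h. The files used give no probe sequences, and the copies of a histone are near-identical genes, so how far a probe also reads the other copy is not known.

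Over the 8 arrays, HTB2 rose and HTZ1 fell between T0h and T6h, and the other 8 histone genes did not pass the test. PE-2 was a sample only at T0h and BY4741 only at T6h. No strain term was fitted, so the differences over the 8 arrays mix strain with time. Values are given in the order PE-2, JP1 and CAT-1 at T0h, and JP1 replicates 1 and 4, CAT-1 replicates 2 and 5 and BY4741 at T6h. A gene was called when limma's two-sided test gave a Benjamini-Hochberg adjusted p under 0.05 over the 5938 gene probes kept, a number that includes all 10 histone genes. Of those 5938, 15.6% were called, 9.72% higher and 5.93% lower at T6h. The count of 2 called histone genes of 10 is close to that background, and the median difference of the 10 was -0.30 against 0.0012 over all genes. Among the 8 core genes the differences ran from -1.04 (HTB1) to 3.01 (HTB2), with a median of 0.06 (log2).

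**Figure D1:**
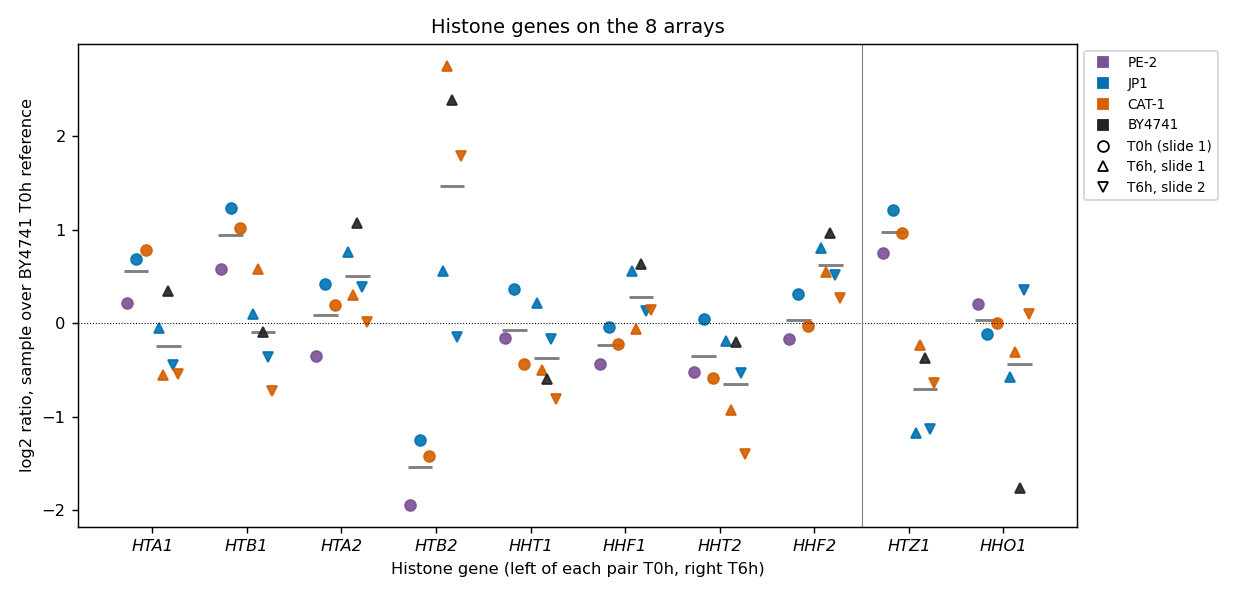
Log2 ratio of sample to the BY4741 T0h reference for each histone gene on each array, T0h at the left and T6h at the right of each gene, with colours for strains, shapes for group and slide, and grey bars for group means. The HTB2 values at T6h all lie above those at T0h, and the HTZ1 values all lie below.

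HTB2, 1 of the pair of H2B genes, had log2 ratios of -1.94, -1.25 and -1.42 at T0h. At T6h they were 0.56 and -0.14 in JP1, 2.75 and 1.79 in CAT-1, and 2.39 in BY4741. The groups did not overlap, and JP1 had the lowest values at T6h. With strain in the fit, the difference within JP1 and CAT-1 was 2.58, and BY4741 stood at 2.39 against its own T0h reference. The difference over all 8 arrays was 3.01 ± 0.59 (SE, log2, 8.04-fold higher at T6h, adjusted p = 0.00565). The red signal alone, quantile-normalised on the log2 scale, was 7.43, 7.95 and 7.60 at T0h and between 9.45 and 11.42 at T6h. HTB2 therefore rose in the sample channel itself, whose signals do not use the dim green spots of slide 2. On slide 1 alone the difference was 3.44 (adjusted p = 0.00877), and without T6h replicates 1 and 2 it was 2.88 (adjusted p = 0.0154). With PE-2 as the lone T0h array it was 3.41, and the call ended (adjusted p = 0.158). In a bulk RNA sample, a change in the share of cells of a kind and a change in RNA per cell cannot be told apart.

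HTB1, the other H2B gene, had a difference of the opposite sign. Its log2 ratios were 0.58, 1.23 and 1.02 at T0h. At T6h they were 0.10 and -0.36 in JP1, 0.59 and -0.72 in CAT-1, and -0.09 in BY4741. The groups overlapped narrowly, in that CAT-1 T6h replicate 2 lay just above PE-2 at T0h. The difference was -1.04 ± 0.32 (SE, log2, adjusted p = 0.0508), just short of the threshold. It passed without T6h replicate 2 (-1.21, adjusted p = 0.0305) and without T6h replicates 1 and 2 (-1.33, adjusted p = 0.0383). On slide 1 alone it was -0.74 (adjusted p = 0.136), and the adjusted p reached 0.198 with another array left out.

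HTA1, the H2A gene that shares its promoter region with HTB1, had log2 ratios of 0.22, 0.69 and 0.79 at T0h. At T6h they were -0.05 and -0.44 in JP1, -0.55 and -0.54 in CAT-1, and 0.35 in BY4741. JP1 and CAT-1 lay below every T0h value at T6h, whereas BY4741 lay among them. The difference was -0.81 ± 0.30 (SE, log2, adjusted p = 0.0859), and without BY4741 it was -0.96 (adjusted p = 0.0286). It did not pass on slide 1 alone (-0.65, adjusted p = 0.206), without T6h replicates 1 and 2 (-0.78, adjusted p = 0.213) or with any other single array left out, where the adjusted p reached 0.281.

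HTA2, the H2A gene beside HTB2, had log2 ratios of -0.35, 0.42 and 0.20 at T0h and between 0.02 (CAT-1 replicate 5) and 1.08 (BY4741) at T6h. The groups overlapped, and the difference was 0.42 ± 0.31 (SE, log2, adjusted p = 0.394). Thus HTB2 passed the test and its promoter partner did not.

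The H3 and H4 genes, which encode the histones of the nucleosome's central tetramer, were not called. HHT1 had log2 ratios of -0.15, 0.36 and -0.43 at T0h and 0.22, -0.17, -0.50, -0.81 and -0.60 at T6h, a difference of -0.30 ± 0.31 (SE, log2, adjusted p = 0.552). HHT2, the other H3 gene, had -0.52, 0.05 and -0.58 at T0h and -0.18, -0.53, -0.92, -1.39 and -0.20 at T6h, a difference of -0.30 ± 0.33 (SE, log2, adjusted p = 0.588). In both H3 genes the groups overlapped, and the lowest value was that of CAT-1 T6h replicate 5.

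Both H4 genes had positive differences that did not pass the test. HHF1 had log2 ratios of -0.43, -0.04 and -0.22 at T0h and 0.56, 0.14, -0.06, 0.14 and 0.63 at T6h, a difference of 0.51 ± 0.27 (SE, log2, adjusted p = 0.218). HHF2 had -0.17, 0.31 and -0.03 at T0h and 0.81, 0.52, 0.55, 0.28 and 0.97 at T6h, a difference of 0.59 ± 0.26 (SE, log2, adjusted p = 0.155). JP1 at T0h was the highest T0h sample in both, and 1 CAT-1 array at T6h reached down to it.

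HTZ1, the H2A.Z gene, had log2 ratios of 0.75, 1.22 and 0.97 at T0h. At T6h they were -1.17 and -1.13 in JP1, -0.23 and -0.63 in CAT-1, and -0.37 in BY4741. The groups did not overlap, with every T0h sample above the reference and every T6h sample below it. With strain in the fit, the difference within JP1 and CAT-1 was -1.88, and BY4741 stood at -0.37 against its own T0h reference. The difference over all 8 arrays was -1.68 ± 0.30 (SE, log2, 3.22-fold lower at T6h, adjusted p = 0.00355). It was -1.57 on slide 1 alone (adjusted p = 0.0185) and -1.69 without T6h replicates 1 and 2 (adjusted p = 0.0142). With PE-2 as the lone T0h array it was -1.46, and the call ended (adjusted p = 0.233).

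HHO1, the linker histone gene, had log2 ratios of 0.21, -0.11 and 0.00 at T0h. At T6h they were -0.58 and 0.35 in JP1, -0.31 and 0.10 in CAT-1, and -1.76 in BY4741. The T6h arrays of slide 1 lay below every T0h value and those of slide 2, where the green signal was dim, lay above or among them. The difference was -0.47 ± 0.42 (SE, log2, adjusted p = 0.485). It was -0.92 on slide 1 alone (adjusted p = 0.16), and between -0.14, without BY4741, and -0.67 with 1 array left out.

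The red channel read without the reference gave more calls. Of the 5938 probes 27.2% were called in it, and 5 of the 10 histone genes were: HTB2 rose, with a log2 difference of 2.80, and HTA1, HTB1, HTZ1 and HHO1 fell, with differences of -1.04, -1.06, -1.87 and -0.93 (adjusted p = 0.00287, 0.0219, 0.0103, 0.000671 and 0.0402). For HHO1 the red signals were 9.22, 8.89 and 8.99 at T0h and 8.45, 8.47, 8.17, 8.18 and 7.23 at T6h, so in this channel the slides did not part and BY4741 was lowest. The CAT-1 values at T6h come from the arrays with the dimmest red channel. Groups without overlap were found for 2 of the 10 genes in the log2 ratio, against 25.0% of all probes, and for 6 of the 10 in the red signal, against 33.5%. The 6 were HTB2 and HHF2, higher at T6h, and HTA1, HTB1, HTZ1 and HHO1, lower.

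**Figure D2:**
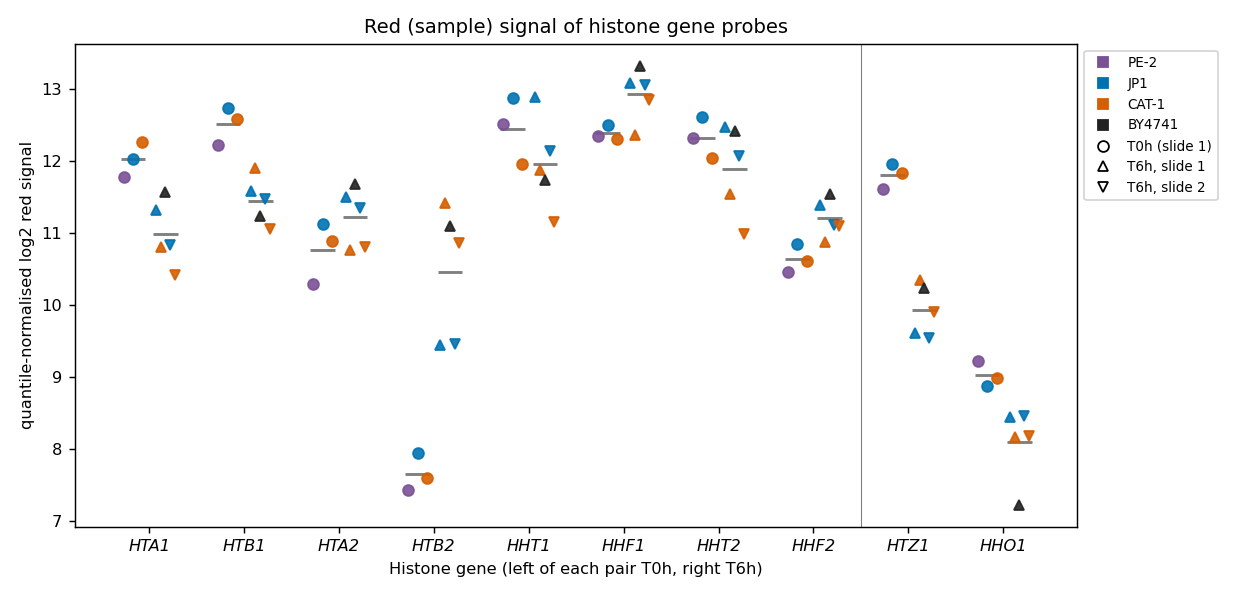
Quantile-normalised log2 red signal of each histone probe on each array, T0h at the left and T6h at the right of each gene, with strain colours, group and slide shapes, and grey bars for group means. HTB2 and HHF2 lie higher at T6h without overlap, and HTA1, HTB1, HTZ1 and HHO1 lie lower; heights of different probes are not comparable.

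Within JP1 and CAT-1, the strains seen at both times, the H2A and H2B genes of chromosome IV also passed the test. With strain as a term in the fit, 4 of the 10 histone genes were called, against 19.7% of all probes, with 12.7% higher and 6.96% lower. HTB2 rose by 2.58 ± 0.50 (SE, log2, 5.96-fold, adjusted p = 0.00463) and HTZ1 fell by 1.88 ± 0.33 (3.69-fold, adjusted p = 0.00284). HTA1 fell by 1.13 ± 0.30 (2.19-fold, adjusted p = 0.0225) and HTB1 fell by 1.22 ± 0.39 (2.33-fold, adjusted p = 0.0475).

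Not every call stood in the alternatives. The call of HTA1 ended in 9 of 17 alternatives and that of HTB1 in 10 of 17, among them slide 1 alone, where the differences were -1.04 (adjusted p = 0.0831) and -0.78 (adjusted p = 0.163). With 1 T0h array per strain, the HTB2 call ended without CAT-1 at T0h (1.46, adjusted p = 0.126), as it did with no background correction (2.43, adjusted p = 0.0578), and the HTZ1 call without JP1 at T0h (-1.40, adjusted p = 0.0906). Without T6h replicates 1 and 2, all 4 genes were called, at 2.16 for HTB2, -1.97 for HTZ1, -1.23 for HTA1 and -1.67 for HTB1 (adjusted p = 0.00398, 0.00307, 0.0498 and 0.00928). That setting leaves T6h only on slide 2 and T0h only on slide 1, so time and slide cannot be told apart in it. In the fit to all 6 arrays, the other 6 genes had differences between -0.49 (HHT2) and 0.40 (HHF2), with adjusted p of 0.293 or more.

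The time change of HTB2 was larger in value in CAT-1 than in JP1, and the test of that difference did not pass. It was 3.70 in CAT-1 and 1.46 in JP1, a difference of 2.24 ± 0.75 (SE, log2, adjusted p = 0.630). No gene was called in that test, 341 had an unadjusted p under 0.05, and the fit has 1 T0h array per strain. In the red channel alone HTB2 was among 413 genes called there (2.04, adjusted p = 0.0158). The call was therefore not particular to HTB2. For HTZ1 the change was -2.36 in JP1 and -1.40 in CAT-1, a difference of 0.96 ± 0.60 (SE, log2, adjusted p = 0.961). Averaged over the times, no histone gene was called between CAT-1 and JP1, where 0.101% of all probes were, 0.0674% higher and 0.0337% lower in CAT-1. The values furthest apart were those of HTB2, higher in CAT-1 by 1.32 ± 0.47 (SE, log2, adjusted p = 0.229).

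At T0h the industrial strains differed from the BY4741 reference in HTB2, which was lower, and in HTB1 and HTZ1, which were higher. The comparison tests the 3 T0h ratios against 0, which leaves out the spread of BY4741 itself, and it shares its samples with the comparison over time. Of all probes 32.7% were called, 15.2% higher and 17.5% lower, and 3 of the 10 histone genes were. HTB2 was lower than in BY4741 by a log2 ratio of -1.54 ± 0.19 (SE, 2.90-fold, adjusted p = 0.00357). HTB1 was higher by 0.94 ± 0.18 (1.92-fold, adjusted p = 0.0118) and HTZ1 by 0.98 ± 0.17 (1.97-fold, adjusted p = 0.00807). In each of these genes the 3 strains lay on the same side of the reference. HTA1 was higher in value in all 3 as well, by 0.57 ± 0.18 (adjusted p = 0.0518). The doubt over the names of the JP1 and CAT-1 arrays touches this comparison, and without both of them no test is left. The calls of HTB1 and HTZ1 ended without CAT-1 at T0h (adjusted p = 0.0868 and 0.0655).

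**Figure D3:**
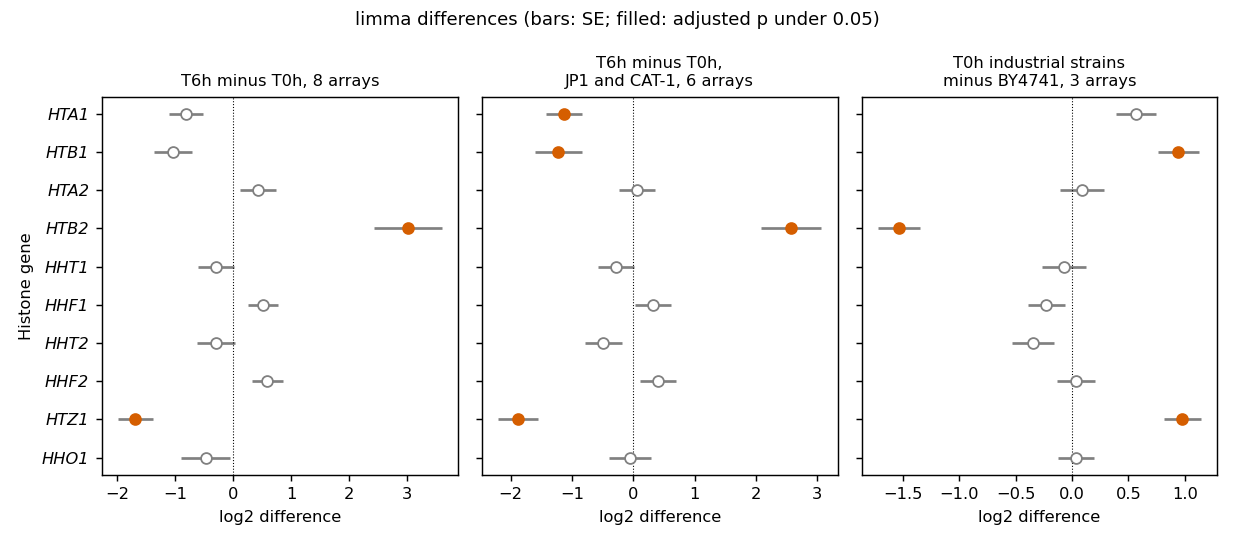
Fitted log2 difference of each histone gene, with bars for the SE, in the comparison of T6h with T0h (8 arrays), the same within JP1 and CAT-1 (6 arrays) and the industrial strains at T0h against the BY4741 reference (3 arrays); filled points passed the test. HTB2 and HTZ1 are filled in all 3 panels, with opposite signs between the time panels and the T0h panel, which share the T0h arrays.

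BY4741 was followed over time on 1 array, its T6h sample against its own T0h reference, so its values have no replicate check. HTB2 stood at 2.39, HTA2 at 1.08, HHF2 at 0.97 and HHF1 at 0.63. HTA1 stood at 0.35 and HTB1 at -0.09. The largest fall among the histone genes was that of HHO1, at -1.76. Against this array, with the spread taken from the other samples, the change over time in JP1 and CAT-1 differed for 12.0% of all probes, 6.74% higher and 5.25% lower, and for none of the 10 histone genes. The nearest were HHO1 (1.71 ± 0.52, SE, log2, adjusted p = 0.0562), HTA1 (-1.48 ± 0.46, adjusted p = 0.0582) and HTZ1 (-1.51 ± 0.50, adjusted p = 0.0739). At T6h, JP1 and CAT-1 against BY4741 gave no called gene at all with limma, although 894 had an unadjusted p under 0.05. HHO1 was higher in them by 1.65 in value (adjusted p = 0.165).

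The partners of a divergent pair and the copies of a histone could be set against each other within each array, as differences of log2 ratios and not of levels. These 8 differences were tested after their values had been seen, each by a two-sided exact permutation test over the 56 arrangements of the arrays, whose smallest p is 0.0357. HTB2 minus HTB1 was -2.52, -2.48 and -2.44 at T0h. At T6h it was 0.45 and 0.22 in JP1, 2.17 and 2.51 in CAT-1, and 2.48 in BY4741. The T6h and T0h means of this difference lay 4.05 apart (log2, exact p = 0.0357), with an SD of 0.039 over the 3 T0h arrays.

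HTA2 minus HTA1, the H2A copies, was -0.56, -0.26 and -0.59 at T0h and between 0.56 and 0.86 on all 5 arrays at T6h. The means lay 1.23 apart (exact p = 0.0357), or 1.28 on slide 1 alone. On every array at T0h the chromosome II copies of H2A and H2B thus stood below the chromosome IV copies relative to the reference, and on every array at T6h above them. For the H3 copies, HHT2 minus HHT1, the means lay 0.0026 apart (exact p = 0.786), and for the H4 copies, HHF2 minus HHF1, 0.075 apart (exact p = 0.607).

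Among promoter partners, HTB1 minus HTA1 had a T6h mean minus T0h mean of -0.23 (exact p = 0.536). For HTB2 minus HTA2 this was 2.59, from values between -1.67 and -1.60 at T0h to -0.21 and -0.53 in JP1, 2.45 and 1.77 in CAT-1, and 1.32 in BY4741 (exact p = 0.0357). In both H3-H4 pairs the H4 gene stood higher against its H3 partner at T6h than at T0h, by 0.81 for HHF1 minus HHT1 and by 0.88 for HHF2 minus HHT2 (exact p = 0.0357 for each). The H3 and H4 genes themselves were not called. The 5 differences with the smallest p have a Benjamini-Hochberg adjusted p of 0.0571 over the 8 pairs, so none passed after adjustment. Each was at the smallest p the test can give, so 5 of 8 could not pass whatever their size. The adjustment therefore does not decide about them. The arrangements also ignore strain. Without T6h replicates 1 and 2, these 5 were 4.22 for the H2B copies, 1.18 for the H2A copies, 2.48 for HTB2 minus HTA2, and 0.99 and 0.91 for the H4-H3 differences on chromosomes II and XIV.

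**Figure D4:**
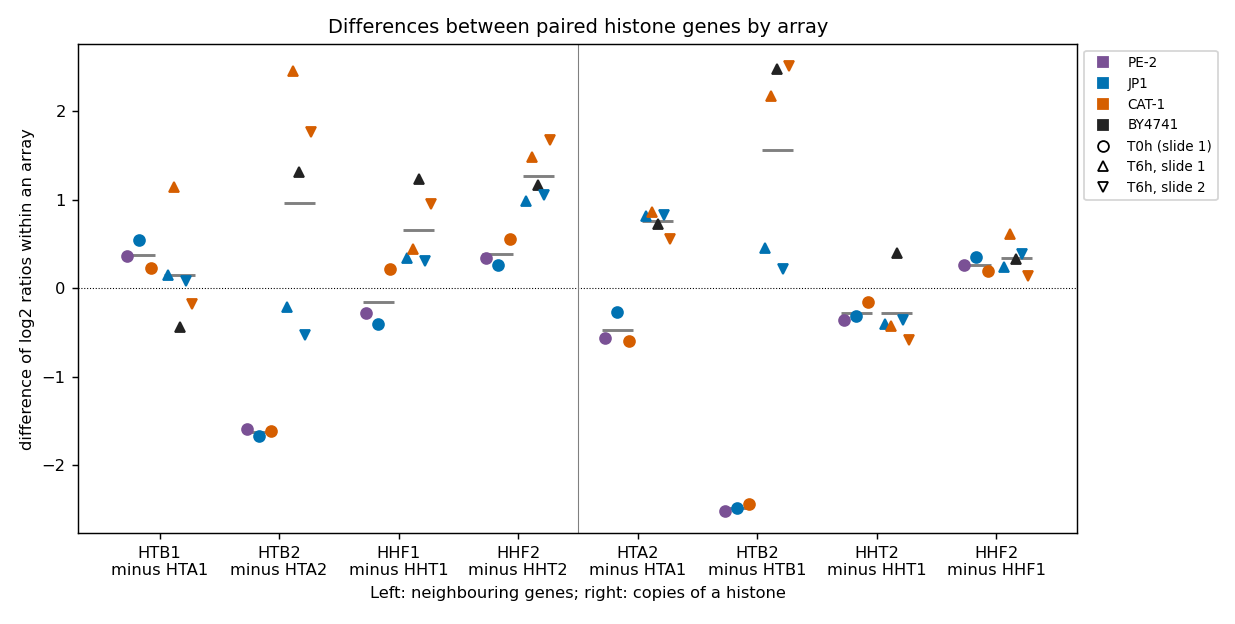
Difference of log2 ratios between partners within each array, for the 4 divergent neighbours (left) and the 4 sets of copies (right), T0h beside T6h, with strain colours, group and slide shapes, and grey bars for means. The T0h and T6h points do not overlap for HTB2 minus HTA2, HHF1 minus HHT1, HHF2 minus HHT2, HTA2 minus HTA1 and HTB2 minus HTB1.

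The median log2 ratio of the replication-linked genes stood below that of HTZ1 at T0h and above it at T6h. Their median log2 ratio minus that of HTZ1 was -1.01, -0.88 and -1.09 at T0h. At T6h it was 1.56 and 0.97 in JP1, 0.35 and 0.37 in CAT-1, and 0.86 in BY4741. It was negative on every T0h array and positive on every T6h array, and the means lay 1.82 apart, or 1.20 in the red channel alone. The core median itself was -0.26, 0.34 and -0.12 at T0h and between -0.26 and 0.49 at T6h, so it overlapped. Most of the shift is thus that of HTZ1 itself, which was -1.68 over the 8 arrays. At T0h none of the 8 core genes was above HTZ1 in PE-2, and 1 was in JP1 and in CAT-1. At T6h all 8 were above it in both JP1 samples, 5 in both CAT-1 samples and 7 in BY4741.

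Against HHO1 there was no such order. The median minus HHO1 was -0.47, 0.45 and -0.12 at T0h, and 0.96, -0.51, 0.43, -0.36 and 2.25 at T6h. The values at T6h were positive on slide 1 and negative on slide 2. The log2 ratios of HTZ1 and HHO1 had a Pearson correlation of 0.18 over the 8 arrays, whereas in the red channel, which does not use the dim green signals, both were called lower at T6h (-1.87 and -0.93, as above).

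**Figure D5:**
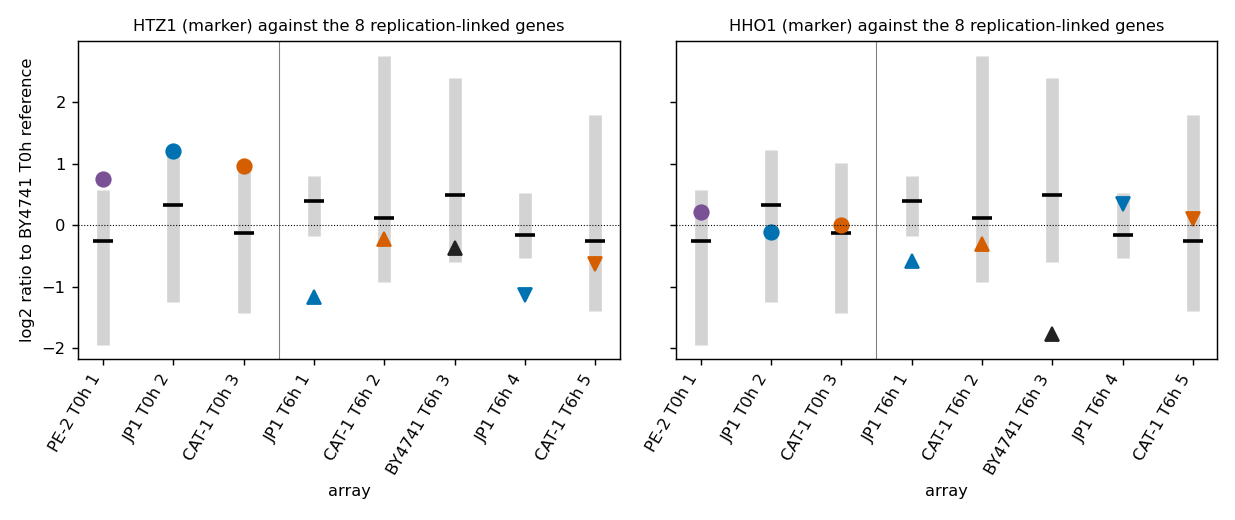
Log2 ratio of HTZ1 (left) and HHO1 (right) on each array, as coloured markers (circles T0h, upward triangles T6h slide 1, downward triangles T6h slide 2), with the range of the 8 replication-linked genes in grey and their median as a black bar. HTZ1 lies above the median on the 3 T0h arrays and below it on the 5 T6h arrays, while HHO1 changes side within both groups.

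Across the 8 arrays the copies of H3 and of H4 followed each other more closely than the copies of H2A and of H2B. The Pearson correlation was 0.93 between the H4 genes HHF1 and HHF2 and 0.77 between the H3 genes HHT1 and HHT2, but 0.12 between HTA1 and HTA2 and -0.54 between HTB1 and HTB2. Between promoter partners it was 0.72 for HTA1 and HTB1, 0.49 for HTA2 and HTB2, -0.03 for HHT1 and HHF1 and 0.27 for HHT2 and HHF2. HTZ1 followed HTB1 at 0.84 and HTA1 at 0.76. All these points share the green reference and the split of the groups, and are a description only.

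Outside the histones, 5928 genes were ranked by the same correlation over the 8 arrays. The mean of the 8 core genes was most like SEC72, for protein entry into the endoplasmic reticulum (0.94), SPR28, a sporulation septin (0.94), YEL1 (0.93), RPB10, a shared subunit of the RNA polymerases (0.92), and RUB1, a ubiquitin-like modifier (0.92). HTZ1 was most like ATP15, a subunit of the mitochondrial ATP synthase, TAM41, a mitochondrial lipid enzyme, and PDR10, a membrane transporter, at 0.99 each. HHO1 was most like ATG22 of the vacuole (0.98), MND2 of the anaphase-promoting complex (0.98) and IRC24 (0.97). These are the highest of 5928 correlations over 8 arrays, and 25.0% of all probes had T0h and T6h ratios without overlap. They are a description only, and shared control of these genes was not tested.

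The genes that control or handle histones are read against the 15.6% of all probes called over the 8 arrays and the 19.7% called within JP1 and CAT-1. Of 12 regulators of histone genes, 1 was called over the 8 arrays: YTA7, a chromatin boundary factor at histone genes, rose by 1.39 ± 0.33 (SE, log2, adjusted p = 0.0163). Its log2 ratios were -0.22, -0.49 and -0.23 at T0h and 0.41, 0.92, 1.47, 1.81 and 0.75 at T6h, without overlap. The regulators' median was 0.10, against 0.0012 over all genes. The HIR genes, SPT10, SPT21 and the SBF and MBF genes were among the 11 not called.

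Of 12 chaperones and assembly factors, 3 were called, a count near the 15.6% of all probes. CAC2, a subunit of the CAF-1 complex that places new histones on replicated DNA, rose by 1.28 ± 0.39 (SE, log2, adjusted p = 0.0454). SPT16 of the FACT complex fell by 0.92 (adjusted p = 0.0403) and SPT6, which keeps nucleosomes in place during transcription, fell by 0.91 (adjusted p = 0.0396). The list's median was -0.21. The green signals of YTA7, CAC2 and SPT6 were not well above background on slide 2. On slide 1 alone YTA7 (1.19, adjusted p = 0.0467) and SPT16 (-1.06, adjusted p = 0.0341) were still called, and CAC2 (0.94, adjusted p = 0.107) and SPT6 (-0.90, adjusted p = 0.08) were not. Without T6h replicates 1 and 2 the call of YTA7 stood (1.47, adjusted p = 0.035), and those of CAC2 (1.48, adjusted p = 0.0554), SPT16 (-0.79, adjusted p = 0.169) and SPT6 (-1.03, adjusted p = 0.0707) ended. In JP1 and CAT-1 alone, YTA7 and CAC2 were called again, at 1.51 and 1.57 (adjusted p = 0.00813 and 0.0125), and no other member of these lists was. On slide 1 alone neither call stood there (1.30 and 1.16, adjusted p = 0.0542 and 0.0631).

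No member of the SWR1 complex list, which exchanges H2A.Z, was called over time (0 of 9 measured, differences between -0.61 and 0.93), and its median was 0.12. Of 24 genes of S phase and DNA replication none was called either, over the 8 arrays or within JP1 and CAT-1, where 15.6% and 19.7% of all probes were. Their differences over the 8 arrays lay between -0.72 and 0.53, with a median of 0.017. CSE4, the centromeric H3 variant, and its chaperone SCM3 were not called.

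At T0h against BY4741, 32.7% of all probes were called. Of 12 regulators, 0 were higher and 1 lower, and of 12 chaperones 2 were higher and 2 lower. Of 9 measured SWR1 genes, 0 were higher and 1 lower, and of 24 replication genes 2 were higher and 4 lower. None of these lists stood clearly above the share of all probes. Among regulators ASF1 was lower (-0.68). Among chaperones CAC2 (-0.95) and NAP1 (-0.96), an H2A-H2B chaperone, were lower, and SPT6 (0.97) and CHZ1 (0.61), a chaperone of H2A.Z, were higher. SWC5 of the SWR1 complex was lower (-0.70). Of the 24 replication genes, the cyclin gene CLB5 (1.16) and the primase gene PRI1 were higher and RFA3, RAD27, PRI2 and CDC9 were lower, with a median of -0.14. The 4 genes that BY4741 lacks in working form were all higher in the industrial strains, by 1.45 (MET17) to 4.06 (URA3). MFA2, which encodes the a-factor pheromone, was lower (-1.38). When the change over time in the mill strains JP1 and CAT-1 was set against the BY4741 array, VPS71 of the SWR1 complex was the 1 call among the chromatin lists (-1.68, adjusted p = 0.0373), and its green signal was not well above background on slide 2.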

How the data were processed

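Per the file headers, Agilent Feature Extraction 10.10.1.1 gave the deposited intensity values (median signals and local backgrounds) of each spot, processed signals, a log10 ratio of red over green, and marks for spot quality, which have no physical unit (other). The submitters' processing notes name limma. The deposited value table states no unit (other); it was used for 1 alternative, since several columns matched other arrays than their names say. A dye swap is named in the labelling protocol, but by the labels every sample used here was red.

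Here, marked spots were left out, signals were corrected by normexp (offset 50) and normalised by loess in limma 3.58.1 under R 4.3.3, and the 2 spots per probe averaged. A probe was kept where, on 3 or more arrays, its red or green signal was well above background (5938 probes). All tests across genes were limma's, with Benjamini-Hochberg adjustment, over 7 comparisons. The median of all log2 ratios on each array is near 0 by construction, so a shift of all genes cannot be seen. The number of arrays limits the precision. The code was tested on simulated data.

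The histone genes and the lists around them (regulators, chaperones, SWR1 complex, S phase, centromeric histone, strain and mating markers) were chosen with earlier results of these data known. All 10 histone genes are named, as are the called members of the chromatin and replication lists and, by correlation, the genes most like the histone genes. Some markers were called over time and are not named above. They are LEU2 (4.74), MET17 (4.97) and URA3 (-1.58) in JP1 and CAT-1, and LEU2, MET17 and MF(ALPHA)1 in the change against BY4741. Alternatives were other background corrections, normalisations and filters, the red channel alone, slide and replicate number as blocks, and leaving out arrays. No genome coordinates are given, since the array design and the gene table rest on different builds, and the probe sequences were not used here.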

Additional observations from a re-analysis of the deposited data

Results flagged for a closer look

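The HHO1 red signal of the BY4741 array at T6h, 7.23 on the quantile-normalised log2 scale, stood apart from the other 4 T6h arrays, which lay between 8.17 and 8.47. It was the 1 case flagged of 20 tested in this way (2 measures of each histone gene at T6h). How often chance flags 1 was not tested, and the 2 measures of a gene share their arrays. The array is also the T6h group's only BY4741 sample, so the strain and the array cannot be told apart.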

How the results depend on the processing

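The calls of HTB2 and HTZ1 over all arrays ended in 1 of 20 and 1 of 21 alternatives, with PE-2 as the lone T0h array, where 0 histone genes and 53 genes in all were called (the strict filter on dim probes leaves HTB2 and HHO1 out). The main values are the counts of called histone genes and the core median against HTZ1 and HHO1. Of their 146 alternatives, 129 stayed close to the reported one and 17 moved. Some differences of genes that were not called changed sign. In JP1 and CAT-1 without T6h replicates 1 and 2, HHO1 went from -0.054 to 0.28 and HTA2 from 0.06 to -0.107. Over JP1 and CAT-1, the 4 called histone genes became 2 with no background correction (HTA1 and HTZ1), with an offset of 10, with Agilent's processed signals, with median centring, with slide as a block and on slide 1 alone, and 1 to 4 when an array was left out. Over all arrays, the 2 became 5 in the red channel alone and 2 to 3 with an array left out, and at T0h the 3 became 1 to 4. For the change over time in the mill strains set against the BY4741 array, the count of 0 became 2 with the strict filter on dim probes, 0 to 2 with an array left out and 1 without T6h replicates 1 (JP1) and 2 (CAT-1), a setting chosen, like PE-2 alone at T0h, after seeing the data. For CAT-1 against JP1 over time it became 1 in the red channel alone, where 413 genes in all were called. The core median minus HTZ1 shifted by 1.2 in the red channel alone, and by 1.63 to 1.93 with an array left out, and the core median minus HHO1 by 0.18 to 0.871. The cause of these shifts was not tested. With the replicate number as a block, 2 histone genes were called, as without it, and 536 genes in all. The numbers join different strains, deviations of same-numbered arrays correlated at -0.081, -0.19 and -0.12, and so they do not pair the samples.

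Counts over all genes moved more. Over all arrays 929 became 439 with median centring, 292 with the strict filter, 1613 in the red channel and 446 to 1126 with an array left out. In JP1 and CAT-1, 1167 became between 339 and 2505, and for the change against BY4741, 712 became between 1 (Agilent's processed signals) and 917. Against BY4741 at T6h, 0 became 33 with the strict filter, 196 in the red channel, 14 with the value table and 129 without T6h replicates 1 and 2. CAT-1 against JP1 went from 6 to between 0 and 318, and their changes over time from 0 to 35 with the strict filter and 413 in the red channel. At T0h 1939 became 537 without replicate 3. The value table could be used only for the comparison with BY4741 at T6h. Of the 10 histone genes, the dim green channel of slide 2 left HTB2 and HHO1 not well above background.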
